A study of Mus musculus with 20 samples.

Results

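The microRNAs described here are 4 mature products that red cells are known for, mmu-miR-451a, mmu-miR-144-3p, mmu-miR-144-5p and mmu-miR-486-5p, measured by small RNA sequencing in mouse liver. They were found by name, taking every row of miR-451a, miR-451b, miR-144, miR-486 or miR-486b with any arm suffix, also inside joined names. This gave 6 rows of 1509 miRNA rows in all. Besides the 4 named products these were miR-486-3p and miR-3107-3p, the latter from the gene that RefSeq also lists as mir-486b, and 0 rows carried the name miR-451b. The miR-486-5p row is a joined row, named for miR-3107-5p and miR-486-5p together, so reads of the 2 gene copies cannot be told apart. The samples were livers of 5 mice labelled PiZ and 5 wild-type (WT) mice, all C57BL/6 and 6 weeks old, with 1 library per mouse sequenced in 2 technical runs that were summed here. PiZ mice carry a human alpha-1 antitrypsin transgene of the Z variant, a protein that misfolds and accumulates in hepatocytes. The labels give neither the sex of the mice nor any treatment. Livers were dissected and frozen, and whether they were perfused free of blood was not given in the sources used here.

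MicroRNAs are short RNAs that guide Argonaute proteins to partly complementary messenger RNAs, chiefly through the seed near their 5′ end. The miR-144 and miR-451a hairpins lie side by side and are made from 1 primary transcript, which the erythroid transcription factor GATA1 switches on as red cell precursors mature. miR-144 is cut by Drosha and Dicer in the usual way, whereas the miR-451a hairpin is too short for Dicer and is cut by Argonaute 2 itself. miR-486-5p comes from within the ankyrin gene Ank1, is abundant in red cells, and is also made in skeletal and heart muscle. Red cells that have lost their nucleus keep these miRNAs, so any blood-filled organ holds them.

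The sequences are shown because the products of the shared transcript differ in seed, and because the place of each product in its hairpin differs between the 2 genes. They were taken from RefSeq (GRCm38.p6), which held a mature sequence for 3 of the 6 rows, and capitals mark the seed, bases 2 to 8 from the 5′ end.
miR-451a: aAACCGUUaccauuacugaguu
miR-144-3p: uACAGUAUagaugauguacu
miR-144-5p: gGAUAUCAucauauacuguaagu
The 3 products are 22, 20 and 23 bases long and lie on the plus strand at chr11:78073186-78073207, chr11:78073047-78073066 and chr11:78073010-78073032. Their seeds differ from each other, and 0 other mature sequences in the table share any of them. The nearest to miR-144-3p was 1 miRNA with the same bases 2 to 7, miR-101a-3p, shown with bases 2 to 8 in capitals.
miR-101a-3p: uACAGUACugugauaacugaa
The hairpins follow with the mature products in capitals.
Mir144: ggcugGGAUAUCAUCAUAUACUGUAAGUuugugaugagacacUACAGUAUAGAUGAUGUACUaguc
Mir451a: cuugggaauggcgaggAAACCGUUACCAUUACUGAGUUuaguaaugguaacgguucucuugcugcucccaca
Mir144 is 66 bases at chr11:78073005-78073070 and Mir451a is 72 bases at chr11:78073170-78073241, with 99 bases between them. In the fold that RNAfold predicted for Mir144, with 27 base pairs, each arm lay wholly outside the terminal loop of 6 bases. In the fold of Mir451a, with 30 base pairs, mature miR-451a ran from base 17 to base 38 of the hairpin and covered all 4 bases of the loop. The joined miR-486-5p row, miR-486-3p and miR-3107-3p are given by name. RefSeq places Mir486 and Mir3107 over each other within Ank1.

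The deposited values are estimated read counts per miRNA. Summed over both runs, libraries held from 1307857 reads (WT mouse 1) to 10780801 reads (PiZ mouse 4), so that 1 read stood for 0.0928 to 0.765 RPM (reads scaled to a fixed library total). The files came with 2 lists of miRNAs, a longer one for PiZ mice 1 and 2 and WT mice 1, 2 and 3 and a shorter one for the other 5 mice, and 880 miRNAs were on both. The file list was therefore a term of the model for fold changes. The tests of the share of reads, the ratios and the correlations did not take it into account. WT mice 1 and 3 stood apart from the other 8 libraries in base composition. Spearman's rho between a miRNA's GC content and its level in the library relative to the mean of all mice was 0.655 in WT mouse 1 and 0.447 in WT mouse 3, and -0.334 to -0.150 in the other 8 mice (291 of 336 tested miRNAs had a sequence). That mean includes WT mice 1 and 3, which pushes the values of the other 8 below 0. Their negative sign is therefore no trait of their own. The fold changes, correlations, ratios and share of reads of the members are therefore also given without these 2 libraries.

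Levels were scaled to CPM, the same unit after correction with edgeR's TMM factors. miR-486-5p was the most abundant of the members, then miR-451a, miR-144-3p and miR-144-5p, and this order held in 10 of 10 mice. Among the 880 shared miRNAs, miR-486-5p ranked 38 to 82, miR-451a 70 to 175, miR-144-3p 105 to 268 and miR-144-5p 135 to 281, depending on the mouse. Over the 10 mice together, 41493 reads were of miR-486-5p, 8382 of miR-451a, 3256 of miR-144-3p and 2169 of miR-144-5p. The opposite arms were rare, with 68 reads of miR-486-3p and 30 of miR-3107-3p, and 99.8% of the reads of these 3 rows were miR-486-5p. Both rare arms fell under the filter on low counts and were not tested. miR-486-3p had 2, 0, 28, 16 and 2 reads in PiZ mice 1 to 5 and 2, 1, 1, 5 and 11 in WT mice 1 to 5. The 4 tested members together took 0.0955%, 0.0314%, 0.190%, 0.129% and 0.0568% of all reads in PiZ mice 1 to 5 and 0.115%, 0.0243%, 0.0384%, 0.0477% and 0.0923% in WT mice 1 to 5. The groups overlapped, at 0.101% ± 0.0623 (SD, n = 5) in PiZ and 0.0637% ± 0.0385 (SD, n = 5) in WT, and the difference of 0.0369 percentage points did not pass the test (exact two-sided permutation p = 0.278). It was 0.0146 points without PiZ mouse 3 and 0.0457 points without WT mice 1 and 3. Among the mice with the longer list alone it was 0.00406 points, and among those with the shorter list 0.0552 points.

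miR-451a, which in red cell precursors guards against oxidative stress, was measured at 172, 50.03, 310.4, 174 and 91.0 CPM in PiZ mice 1 to 5. In WT mice 1 to 5 it was at 35.03, 46.9, 16.2, 71.7 and 149 CPM. PiZ mouse 3 was highest and WT mouse 3 lowest, 3 of 5 PiZ mice lay above every WT mouse, and PiZ mice 2 and 5 lay within the WT range. The means were 159 ± 99.8 CPM in PiZ and 63.8 ± 51.7 CPM in WT (SD, n = 5 each). Its log2 fold change, PiZ over WT, was 1.27 with a standard error of 0.47, and the adjusted p of edgeR's quasi-likelihood test was 0.119.

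miR-144-3p, the arm of miR-144 with most of the known targets, was at 50.7, 24.8, 124, 75.2 and 27.3 CPM in PiZ mice 1 to 5. In WT mice 1 to 5 it was at 7.86, 10.95, 2.80, 26.2 and 58.8 CPM. WT mice 1 and 3 were low on few reads, 11 and 5, and the 95% exact Poisson interval of the latter ran from 1.62 to 11.7 reads, which covers counting error only. The groups overlapped, with 2 of 5 PiZ mice above every WT mouse. The means were 60.5 ± 41.1 CPM and 21.3 ± 22.7 CPM (SD, n = 5 each), and the log2 fold change was 1.53 with a standard error of 0.52 (edgeR adjusted p = 0.108).

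miR-144-5p, the other arm of the same hairpin, was at 35.2, 9.46, 71.6, 56.3 and 21.4 CPM in PiZ mice 1 to 5. In WT mice 1 to 5 it was at 2.86, 7.82, 2.24, 18.9 and 41.6 CPM, where WT mice 1 and 3 had 4 reads each. The order of the mice was that of miR-144-3p, and again 2 of 5 PiZ mice lay above every WT mouse. The means were 38.8 ± 25.3 CPM and 14.7 ± 16.4 CPM (SD, n = 5 each), with a log2 fold change of 1.42 and a standard error of 0.54 (edgeR adjusted p = 0.127).

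miR-486-5p, the miRNA shared by red cells and muscle, was at 692, 226, 1244, 933 and 524 CPM in PiZ mice 1 to 5. In WT mice 1 to 5 it was at 1033, 193.5, 307, 393 and 754 CPM. PiZ mouse 3 was the single PiZ mouse above every WT mouse, and WT mouse 1, low for the other 3 members, was the highest WT mouse here. The means were 724 ± 388 CPM and 536 ± 348 CPM (SD, n = 5 each), and the log2 fold change was 0.25 with a standard error of 0.52 (edgeR adjusted p = 0.816).

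**Figure D1:**
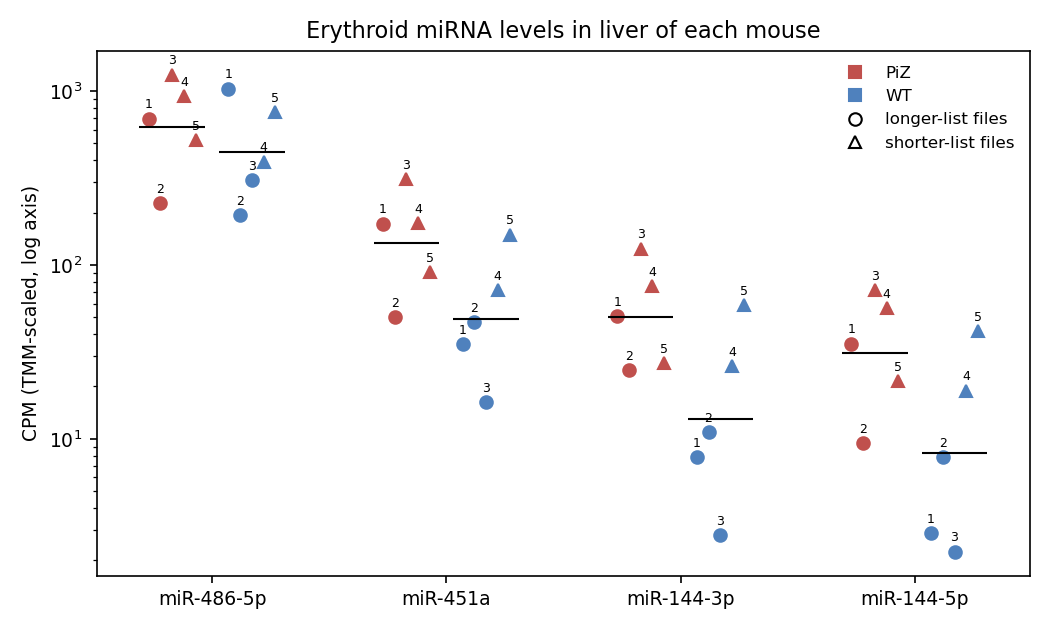
Levels of the 4 members in each mouse, in TMM-scaled CPM on a log axis. Red marks are PiZ and blue marks WT, circles are mice with the longer list and triangles mice with the shorter one, the number above a mark is the mouse, and the black line is the geometric mean of the group. The groups overlap for all 4 miRNAs, and WT mouse 1 is low for miR-451a and both miR-144 arms but at 1033 CPM for miR-486-5p.

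Set against all miRNAs, the members had positive fold changes that did not pass the test. In edgeR's fit, 0 of the 4 tested members had an adjusted p under 0.05, beside 28 of 336 tested miRNAs (8.33%) called higher in PiZ and 3 called lower. At an unadjusted p under 0.05, 3 of 4 members were higher in PiZ, namely miR-451a (p = 0.0209), miR-144-3p (p = 0.0136) and miR-144-5p (p = 0.0241), beside 63 of 336 (18.8%) of all tested miRNAs. The median log2 fold change was 1.34 over the 4 members and 0.069 over all tested miRNAs. Fold changes were positive for 4 of 4 members and for 178 of 336 (53%) of all tested miRNAs. The 3 products of the shared transcript are not independent of each other, so their count adds little to that of 1 of them. DESeq2 called 1 member, miR-144-3p (adjusted p = 0.0322), and 50 of all 336 miRNAs, and limma-voom called 0 members and 7 of 336. Without PiZ mouse 5, edgeR called 46 of 295 miRNAs and 3 members, miR-451a (log2 fold change 1.497, adjusted p = 0.0394), miR-144-3p (1.83, 0.0129) and miR-144-5p (1.69, 0.0385). The count of 3 at an unadjusted p was 0 without PiZ mouse 1, whose removal took the log2 fold change of miR-451a to 0.51, and 1 without WT mouse 1, 3 or 4. That count was also 1 when the file list was left out of edgeR's model, and 1 with limma-voom. Over all tested miRNAs, in either direction, the count was 84 of 402 without PiZ mouse 1. It was 97 of 377, 87 of 381 and 65 of 311 without WT mouse 1, 3 and 4. It was 91 of 336 without the file list and 81 of 336 with limma-voom, against 82 of 336 in the main fit. Without WT mice 1 and 3, edgeR called 0 of 410 miRNAs (104 at an unadjusted p under 0.05), so that its 0 calls among the members say nothing about them in particular, and 0 members had an unadjusted p under 0.05. The log2 fold changes were then 0.92 for miR-451a, 1.09 for miR-144-3p and 0.93 for miR-144-5p. That of miR-486-5p was 0.82, against 0.25 with all mice, and so close to that of miR-451a.

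**Figure D2:**
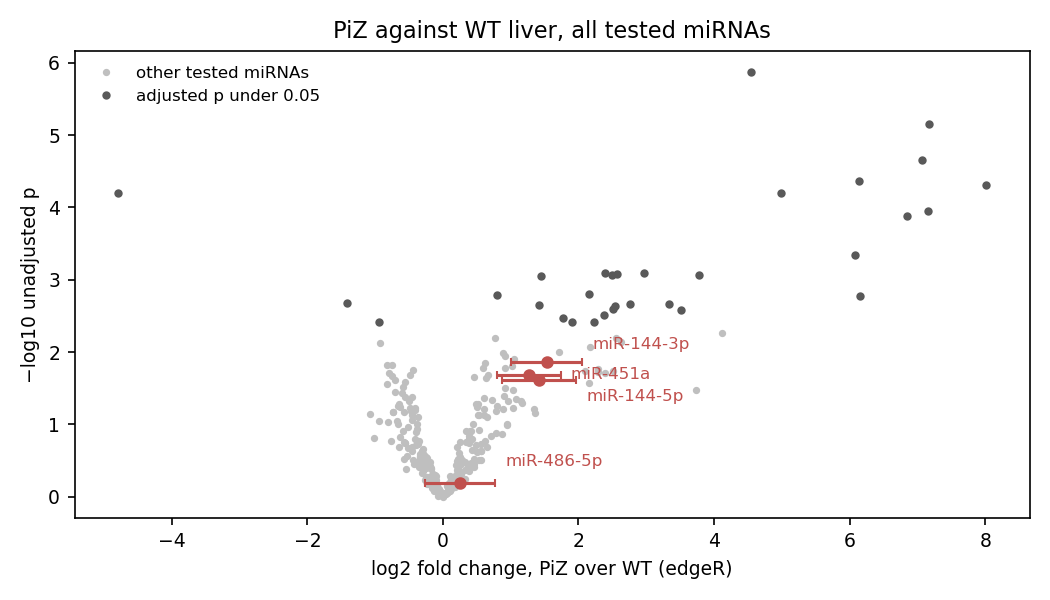
Log2 fold change, PiZ over WT, against −log10 of the unadjusted p for all 336 tested miRNAs. Red points are the 4 members with bars of 1 standard error, dark grey points are miRNAs with an adjusted p under 0.05, and light grey points are the others. miR-451a and both miR-144 arms lie between 1.27 and 1.53 on the x axis, below the called miRNAs, and miR-486-5p lies at 0.25.

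The difference between groups was larger among the mice with the longer list, which include WT mice 1 and 3. There miR-451a averaged 111 CPM in 2 PiZ mice and 32.7 CPM in 3 WT mice, a log2 fold change of 1.75 (edgeR adjusted p = 0.143). miR-144-3p averaged 37.8 and 7.21 CPM, a log2 fold change of 2.38 that passed the test (edgeR adjusted p = 0.0371), and miR-144-5p 22.3 and 4.31 CPM (2.33, 0.103). Among these mice edgeR called 22 of all 277 tested miRNAs, and the low WT values include the 11 and 5 reads of miR-144-3p in WT mice 1 and 3. miR-486-5p went the other way there, with means of 459 and 511 CPM in PiZ and WT (-0.21, 0.865). Among the mice with the shorter list, 3 PiZ and 2 WT, miR-451a averaged 191.7 and 110.3 CPM (log2 fold change 0.80, edgeR adjusted p = 0.534). In these mice miR-144-3p gave 0.84 (0.571), miR-144-5p 0.72 (0.578) and miR-486-5p 0.65 (0.514), and 0 of all 395 tested miRNAs were called. Thus miR-486-5p was the single member whose direction differed between the 2 sets of mice, and the difference between the sets was not tested.

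Within a genotype, the members varied more from library to library than most miRNAs. The highest mouse of a group exceeded the lowest by 6.20-fold in PiZ and 9.18-fold in WT for miR-451a, by 5.004-fold and 21.0-fold for miR-144-3p, by 7.57-fold and 18.6-fold for miR-144-5p, and by 5.50-fold and 5.34-fold for miR-486-5p. The SD of log2 CPM lay between 0.94 and 1.16 in PiZ mice and between 0.98 and 1.76 in WT mice, where the median of all tested miRNAs was 0.38 and 0.56. Between 85.7% and 89.9% of tested miRNAs had a smaller SD than a member in PiZ mice, and between 77.7% and 94.3% in WT mice. These spreads pool both file lists, and all 4 members averaged higher in the shorter-list mice of both genotypes. For miR-144-3p the WT means were 7.21 CPM with the longer list and 42.5 CPM with the shorter one. The lowest WT value of both miR-144 arms was that of WT mouse 3, on 5 and 4 reads, so counting error is part of their spread. The 2 technical runs of a mouse were compared as well. There were 56 comparisons of a row's reads between the 2 runs of a mouse. They include miR-486-3p and miR-3107-3p, whose few reads make a small p hard to reach. Of the 56, 1 had an unadjusted p under 0.05, that of miR-144-3p in PiZ mouse 4, and 0 an adjusted one (exact binomial test, smallest adjusted p = 0.457).

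miR-451a and the 2 miR-144 arms varied together from mouse to mouse. Over the 10 mice, Pearson's r of log2 CPM was 0.98 between miR-451a and miR-144-3p (Spearman's rho 0.988), 0.971 between miR-451a and miR-144-5p (rho 0.988) and 0.971 between the miR-144 arms (rho 1). Each had a permutation p of 2e-05, the smallest that 100000 resamples can give, and an adjusted p of 3.33e-05 over 5 pairs. Mice were shuffled across both genotypes and both file lists. Differences between those groups that the miRNAs share are therefore part of r and of its p. Leaving out PiZ mouse 3 and WT mouse 3, the mice farthest from the median of miR-451a, gave r of 0.944, 0.961 and 0.964, in the same order of pairs. Leaving out WT mice 1 and 3, chosen after their values were seen, gave 0.951, 0.973 and 0.956. With 5 mice for each file list, no value within a list was computed. miR-486-5p followed the others less closely, with r of 0.632 and rho of 0.588 against miR-451a (permutation p = 0.0537 and 0.0842, adjusted p of r 0.0672) and r of 0.555 and rho of 0.6 against miR-144-3p (adjusted p of r 0.1035). Without PiZ mouse 3 and WT mouse 3, r with miR-451a was 0.466. Without WT mice 1 and 3, r was 0.975 with miR-451a and 0.946 with miR-144-3p, a choice of mice made after their values were seen.

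**Figure D3:**
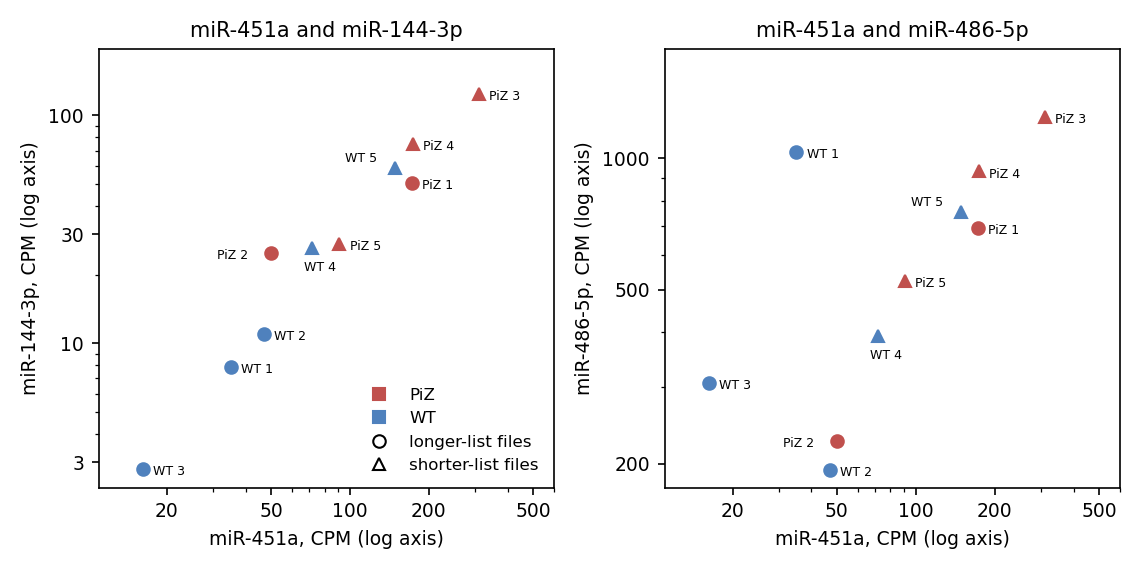
Level of miR-144-3p (left) and of miR-486-5p (right) against that of miR-451a in each mouse, in CPM on log axes, with red for PiZ, blue for WT, circles for the longer list and triangles for the shorter one. On the left the 10 mice lie along 1 line (r = 0.98), and on the right WT mice 1 and 3 lie above the line of the other 8.

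The ratio of 2 miRNAs within a library does not depend on the scaling between libraries. With 0.5 reads added to both counts, here and in the ratios that follow, there were 4.01, 4.51, 4.01, 5.37 and 5.75 reads of miR-486-5p for each read of miR-451a in PiZ mice 1 to 5. In WT mice 1 to 5 there were 29.2, 4.11, 18.6, 5.47 and 5.06. So 8 of the 10 mice lay between 4.01 and 5.75, and WT mice 1 and 3 were the exceptions. On the log2 scale, miR-451a over miR-486-5p was -2.23 ± 0.24 in PiZ and -3.18 ± 1.27 in WT (SD, n = 5 each), a difference of 0.96 (exact two-sided permutation p = 0.183, adjusted p = 0.287 over 11 ratios). Without WT mice 1 and 3 the WT mean was -2.28 ± 0.21 and the difference 0.051 (exact permutation p = 0.821). The reads of miR-486-5p for each read of miR-144-3p were 13.6, 9.05, 10.01, 12.4 and 19.2 in PiZ mice and 125.7, 17.3, 99.7, 14.9 and 12.8 in WT mice. Here too WT mice 1 and 3 lay far above the rest, and the log2 difference of 1.43 for miR-144-3p over miR-486-5p (exact permutation p = 0.0873, adjusted p = 0.21) was 0.27 without them (p = 0.393).

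**Figure D4:**
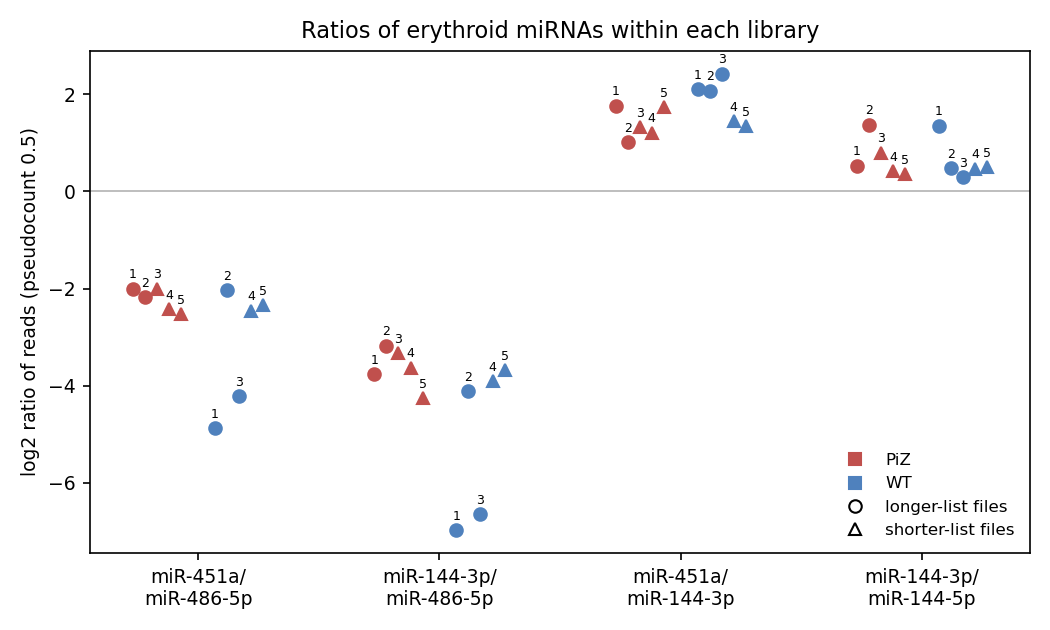
Log2 ratios of reads within each library for 4 pairs of members, with 0.5 reads added to each count. Red is PiZ, blue is WT, circles and triangles are the longer and shorter lists, and the number above a mark is the mouse. In the 2 ratios over miR-486-5p WT mice 1 and 3 lie far below the other 8 mice, and in the 2 ratios among miR-451a and the miR-144 arms the groups overlap.

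Base composition moved with this. The GC content of miR-451a is 36.4%, of miR-144-3p 30% and of miR-144-5p 30.4%, where the median of the tested miRNAs with a sequence was 47.6%. Of these miRNAs, 83.8% had a higher GC content than miR-451a, 97.9% than miR-144-3p and 96.9% than miR-144-5p. The 2 libraries in which these members were low beside miR-486-5p are those in which GC-poor miRNAs tended to be low, with a slope of 0.672 (WT mouse 1) and 0.409 (WT mouse 3) on the log2 scale per 10 points of GC content, against -0.206 to -0.089 in the other 8. Slopes were taken relative to the mean of all mice, so positive slopes in 2 libraries oblige negative ones among the others. When each library's own line on GC content was subtracted, a step chosen after seeing the data, the log2 fold changes in a limma fit were 0.90 for miR-451a (adjusted p = 0.189), 1.12 for miR-144-3p (0.151) and 0.99 for miR-144-5p (0.159). In the same limma fit without that step they were 1.17 (0.169), 1.54 (0.115) and 1.40 (0.141). RefSeq held no sequence for the miR-486-5p row, so its GC content was not computed and it was in neither of these limma fits. The part of base composition in the ratios over miR-486-5p was not tested.

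**Figure D5:**
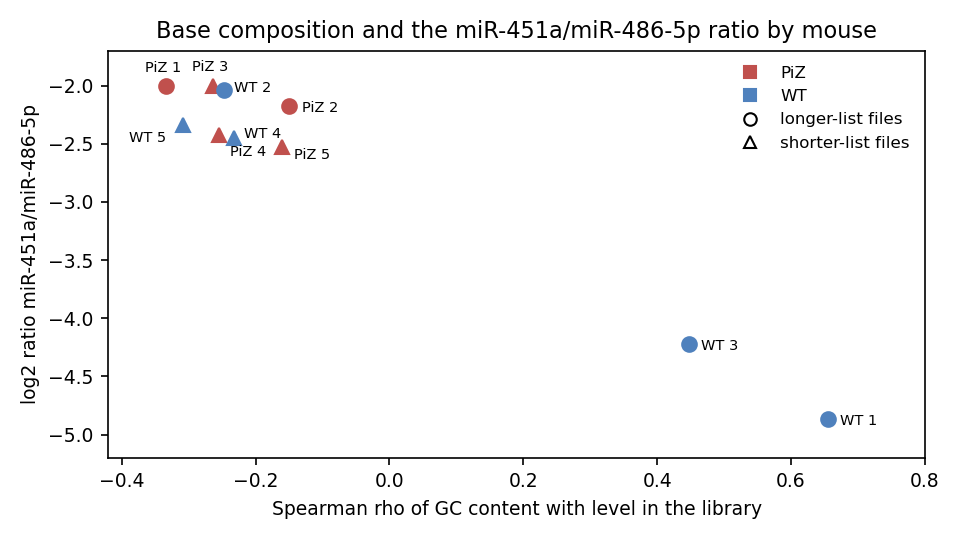
Log2 ratio of miR-451a to miR-486-5p in each mouse against Spearman's rho of GC content with the level of a miRNA in that library relative to the mean of all mice, over 291 miRNAs. Red is PiZ, blue is WT, circles and triangles are the longer and shorter lists. WT mice 1 and 3 lie at the right, at rho 0.655 and 0.447, with the lowest ratios, and the other 8 mice lie together at the upper left.

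Among the products of the shared transcript there were 3.39, 2.01, 2.50, 2.31 and 3.33 reads of miR-451a for each read of miR-144-3p in PiZ mice 1 to 5 and 4.30, 4.21, 5.36, 2.73 and 2.53 in WT mice 1 to 5. The groups overlapped, and the log2 ratios of 1.41 ± 0.33 in PiZ and 1.88 ± 0.46 in WT (SD, n = 5 each) differed by -0.47 (exact two-sided permutation p = 0.0952, adjusted p = 0.21). miR-144-3p over miR-144-5p was 0.69 ± 0.42 in PiZ and 0.62 ± 0.42 in WT on the log2 scale, a difference of 0.076 (exact permutation p = 0.706, adjusted p = 0.777). The 3p arm had more reads than the 5p arm in every mouse, though in WT mouse 3 this rested on 5 reads against 4.

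Ratios to miRNAs of other cells placed miR-451a beside hepatocyte, endothelial and white cell signals, and 0 of the 11 ratios passed after adjustment, with 0.00794 the smallest p that 5 mice against 5 allow. miR-451a over miR-16-5p, a miRNA common to blood and liver cells, was higher in PiZ by 1.68 on the log2 scale (exact two-sided permutation p = 0.0159, adjusted p = 0.175). Over miR-122-5p, the main hepatocyte miRNA, miR-451a was higher in PiZ by 1.90 (p = 0.0476 by the same permutation test, adjusted p = 0.21), while miR-486-5p over miR-122-5p gave 0.95 (adjusted p = 0.287). miR-122-5p itself had a log2 fold change of -0.48 (edgeR p = 0.0207, adjusted p = 0.119), with 5 of 5 PiZ mice below every WT mouse. Its own level is thus part of both ratio differences. Over miR-126a-3p, of endothelium and platelets, the difference was 1.27 (adjusted p = 0.21). Over the white cell miRNAs it was 0.56 for miR-223-3p (adjusted p = 0.446) and -0.011 for miR-142-5p (exact permutation p = 0.984). Without WT mice 1 and 3 the differences were 1.24 for miR-16-5p (exact permutation p = 0.0714), 1.23 for miR-122-5p (p = 0.214), 0.95 for miR-126a-3p, 0.15 for miR-223-3p and 0.18 for miR-142-5p, and 1.18 for miR-486-5p over miR-122-5p. Leaving out 1 mouse at a time, the difference over miR-223-3p ranged from 0.23 to 0.88, from its value without WT mouse 3 to that without PiZ mouse 2. The mean difference near 0 for miR-142-5p came with a wide spread, with 6.19 to 22.6 reads of miR-142-5p for each read of miR-451a in PiZ mice and 6.23 (WT mouse 1) to 33.1 (WT mouse 2) in WT mice. miR-142-5p was at 220 CPM in WT mouse 1 and 300.1 CPM in WT mouse 3, below the 793 to 1561 CPM of the other WT mice and the 1009 to 2102 CPM of the PiZ mice.

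Other miRNAs that red cells hold had fold changes near 0 on the median. Of 15 listed besides the members, 12 were tested, 0 passed in edgeR's fit in either direction, 5 had a positive fold change, and the median log2 fold change was -0.052. Their summed level ran from 10900 to 18530 CPM in PiZ and from 10640 to 19580 CPM in WT. The most abundant, miR-16-5p and miR-25-3p, had log2 fold changes of -0.31 (adjusted p = 0.515) and -0.25 (adjusted p = 0.554). Most of this list is also made in other liver cells. Of 7 white cell miRNAs 6 were tested and 0 passed, with a median log2 fold change of 0.59 and summed levels of 1895 to 3036 CPM in PiZ and 912 to 2171 CPM in WT. Of the 6, 4 had a positive fold change. For miR-223-3p it was 0.77 on the log2 scale (edgeR p = 0.00636, adjusted p = 0.0632), with 5 of 5 PiZ mice above every WT mouse. The biliary miR-200a-3p (0.62, edgeR p = 0.014, adjusted p = 0.109) and miR-141-3p (0.60, 0.0165, 0.113), looked at after their values were seen, were separated likewise. The groups overlapped for miR-200b-3p, miR-200c-3p and miR-429-3p. Full separation, here and for miR-122-5p, was not counted over all tested miRNAs. The 2 endothelial and platelet miRNAs, the 5 hepatocyte, 5 biliary and 5 mesenchymal ones also gave 0 calls, and 2 of 4 pancreas miRNAs were called higher in PiZ. Fold changes were positive for 2 of 2 endothelial and platelet, 3 of 5 hepatocyte, 5 of 5 biliary and 3 of 5 mesenchymal miRNAs. Calls in all these lists were counted at the adjusted p, and no count at an unadjusted p was made. The endothelial and platelet sum was 23350 to 28790 CPM in PiZ and 7895 to 41270 CPM in WT, where WT mice 1 and 3 had the lowest values. Muscle is the other known source of miR-486-5p. Of 5 muscle miRNAs 4 were listed and 0 reached the level for testing, and their sum was 67.5 CPM in PiZ mouse 4 (miR-133a-3p 41.3 CPM, miR-1a-3p 25.4 CPM) and 0 to 3.13 CPM in the other mice. miR-133c, a relative of miR-133a looked at after its values were seen, was tested and stood at 454.6 CPM in PiZ mouse 4, 5.91 to 11.7 CPM in the other PiZ mice and 1.43 to 5.60 CPM in the WT mice (log2 fold change 3.73, edgeR adjusted p = 0.159). PiZ mouse 4 had 5.37 reads of miR-486-5p for each read of miR-451a, within the range of the other PiZ mice, and the part of muscle RNA in its miR-486-5p level was not tested. In such bulk samples, fewer cells of a type and less RNA per cell cannot be told apart.

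The miRNAs whose levels over the 10 mice were most like those of miR-451a, by Spearman's rho over 335 others, were miR-144-3p and miR-144-5p in the first places. After them came miR-301a-3p (rho 0.927), miR-218-5p (0.903), miR-542-3p (0.903), miR-335-3p (0.891) and miR-582-5p (0.887). miR-486-5p was in place 67 (rho 0.588). Of the 5 that are no members, miR-582-5p was the single one called higher in PiZ (log2 fold change 2.96, edgeR adjusted p = 0.0187). Most like miR-486-5p were miR-330-5p (rho 0.842), miR-431-5p (0.806), miR-500-3p (0.806), miR-138-5p (0.721) and miR-214-5p (0.721), and the members miR-144-3p, miR-144-5p and miR-451a took places 16, 17 and 20. The miRNAs compared come from the same 10 libraries, which differ in depth and base composition, and no test was made of these values.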

How the data were processed

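Small RNA was sequenced in liver of 5 PiZ and 5 WT mice, from TruSeq libraries with 1 library per mouse and 2 technical runs, per the labels' protocols. The authors deposited expected counts (estimated read counts per miRNA, some not whole, 19 to 32 rows per file). CASAVA is named in the submitters' processing notes, and which aligner, counter and miRNA release were used was not given in the sources used here. The 2 runs of a mouse were summed, rounded to whole numbers, and restricted to the 880 miRNAs on both file lists. The tests were edgeR 4.0.16 quasi-likelihood (file list and genotype as terms, TMM scaling, filterByExpr, Benjamini-Hochberg, threshold 0.05, 336 miRNAs tested), with limma 3.58.1 and DESeq2 1.42.0 as alternatives in R 4.3.3. Ratios used exact permutation over mice (scipy 1.17.1) after adding 0.5 reads, and correlations used 100000 resamples. These tests, and that of the share of reads, had no term for the file list. Hairpins were folded with RNAfold 2.7.2. p-values over mice set the difference between groups against the spread between mice. With 1 library per mouse, that spread includes differences between libraries. Members, marker lists and the rule for naming miRNAs (the members, ratio partners, the 2 most abundant of a marker list, and the 5 miRNAs most like miR-451a and miR-486-5p) were chosen with earlier results of these data known. Depth was 1307857 to 10780801 reads per mouse.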

Additional observations from a re-analysis of the deposited data

Results flagged for a closer look

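The log2 ratio of miR-144-3p to miR-144-5p in WT mouse 1 lay far above that of the other 4 WT mice, with a gap of 0.802 of the group's range where Dixon's limit for 5 mice is 0.71. It rested on 11 reads of the 3p arm and 4 of the 5p arm. It was the 1 value marked in 32 groups of 5 mice, where chance marks about 1.6.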

How the results depend on the processing

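Across all miRNAs edgeR called 31 of 336. The count was 83 of 852 with no filter, 50 of 336 with DESeq2 and 7 of 336 with limma-voom. It was 18 of 282 with run 2 alone and 22 of 277 with the longer-list mice alone. Limma on miRNAs with a sequence called 15 of 291, and edgeR called 100 of 390 without WT mice 1 and 3 and PiZ mouse 5. The count was 0 of 395 with the shorter-list mice alone (55 at an unadjusted p under 0.05) and 0 of 410 without WT mice 1 and 3 (104). Leaving out 1 mouse at a time gave 5 (without WT mouse 4) to 46 (without PiZ mouse 5). Of the 4 members, edgeR called 0, against 3 with no filter, 1 with DESeq2 (miR-144-3p), 1 with the longer-list mice alone, 1 without WT mice 1 and 3 and PiZ mouse 5, and 0 to 3 leaving out 1 mouse. miR-451a passed with no filter (1.18, edgeR adjusted p = 9.85e-04) and without PiZ mouse 5 (1.497), and leaving out 1 mouse gave 0.51 to 1.57. miR-144-3p passed with no filter (1.45), DESeq2 (1.57) and the longer list (2.38). It also passed without PiZ mouse 5 (1.83) and without WT mice 1 and 3 and PiZ mouse 5 (1.40), and ranged from 0.96 to 1.96 leaving out 1 mouse. miR-144-5p passed with no filter (1.33) and without PiZ mouse 5 (1.69), and ranged from 0.62 to 1.86. miR-486-5p turned to -0.21 with the longer list and ranged from -0.17 to 0.74 leaving out 1 mouse, below 0 without PiZ mouse 1 or WT mouse 4. It was 0.82 without WT mice 1 and 3 and 1.04 when PiZ mouse 5 was left out too. The difference between groups in miR-451a over miR-144-3p was 0.027 with the shorter list and -0.82 with the longer one. In miR-451a over miR-144-5p it was 0.064 and -0.57, in the same order. For miR-144-3p over miR-144-5p it was -0.0505 with run 1 alone and -0.095 to 0.26 leaving out 1 mouse. For miR-451a over miR-142-5p it was 0.18 without WT mice 1 and 3, 0.14 with run 2 alone, and -0.35 to 0.25 leaving out 1 mouse. The share of reads in the members and the count of ratios that passed stayed on the same side of the threshold in the alternatives run. Fewer mice and more or fewer tested miRNAs are part of several of these settings, and otherwise the cause was not tested. No paired analysis was possible because the mice of the 2 genotypes share no number in the labels, where rep numbers mark runs of 1 library. Depth kept miR-486-3p and miR-3107-3p out of the tests, and of the tested members it limits the miR-144 arms most, with 4 to 11 reads in WT mice 1 and 3.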
